A study of Homo sapiens with 12 samples.

Results

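Genes for the core proteins of the spliceosome were followed through drug treatment of KYSE70, a line grown from a human squamous cell carcinoma of the esophagus. The set was defined by gene symbol, as the protein-coding SF3A, SF3B, PRPF, SNRP and LSM genes together with U2AF1 and U2AF2. Of 58884 genes in the deposited table, 49 met this rule, and 47 of them had 4 or more of the 12 libraries at a normalized count of 10 or above, the condition for testing. The rule leaves out 57 pseudogenes with matching symbols. Along with the rest, 16950 genes were tested. The 3 groups of 4 libraries each were KYSE70 cells given 20 nM mitoxantrone for 72 h, KYSE70 cells given 10 µM pyrimethamine for 72 h, and KYSE70 cells left without treatment. Mitoxantrone is an intercalating anticancer drug that poisons type II topoisomerases, pyrimethamine is an antifolate, and the series title presents both as inhibitors of the transcription factor NRF2. All libraries come from 1 cell line, and no vehicle for the untreated cells and no separate cultures for the libraries of a group are given in the labels, so the p-values measure only how far these samples lie apart, and the samples may be technical repeats. The drugs were given at different doses, so the difference between them is one between these 2 treatments.

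The spliceosome removes introns from pre-mRNA and is built from small nuclear ribonucleoproteins (snRNPs), each a small nuclear RNA with its proteins. A ring of Sm proteins, encoded by most SNRP genes, sits on the U1, U2, U4 and U5 RNAs, and a related ring of LSM proteins sits on U6. U1 marks the start of an intron, U2 with its SF3A and SF3B complexes marks the branch point near its end, and the U2AF pair reads the tract and the final dinucleotide beside it. The U4/U6.U5 tri-snRNP, with many of the PRPF proteins, then joins and brings the catalytic core. Most of these genes are active in every dividing cell, and SF3B1 and U2AF1 are recurrently mutated in blood cancers.

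Sequencing depth ran over the 12 libraries from 47465335 to 94516756 reads assigned to genes. The squamous markers KRT5, KRT6A, KRT14, TP63, SOX2, SFN, DSG3 and PKP1, 8 of 8, had reads in every group. Their summed level was 341115 to 363592 normalized counts in the mitoxantrone libraries, 418239 to 442899 in the pyrimethamine libraries and 345311 to 370172 in the controls. KRT5 held most of this sum, and single markers went different ways. In pyrimethamine libraries KRT5 and KRT6A were above all controls and TP63, SOX2 and DSG3 below, while the others overlapped. In mitoxantrone libraries TP63 and SOX2 were above all controls and KRT6A, SFN and PKP1 below, while the others overlapped. SOX2 had 17329 to 20320.5 normalized counts under mitoxantrone, beside 8866 to 10181 in the controls. The 7 markers of other cell types summed to 1.0 to 8.7 normalized counts under mitoxantrone, 71.9 to 106.2 under pyrimethamine and 35.6 to 48.8 in the controls. Most of these sums came from ALB, PTPRC and SFTPC. ALB had 0 to 1.2 normalized counts under mitoxantrone, 37.4 to 69.0 under pyrimethamine and 25.1 to 33.2 in the controls. PTPRC had 0 to 7.4, 17.4 to 29.4 and 1.3 to 11.2 in the same order. SFTPC had 0 to 3.6, 1.8 to 6.6 and 4.7 to 14.5. CD3E, COL1A2, MLANA and PECAM1 had 0 reads under mitoxantrone. In the controls COL1A2 also had 0 reads, and CD3E, MLANA and PECAM1 each had reads in 1 library, 3 at most. Under pyrimethamine each of CD3E, COL1A2, MLANA and PECAM1 had reads, 7 at most in a library. Whether these differences play a part in the results was not tested. In bulk RNA, fewer cells of a kind and less RNA per cell cannot be told apart.

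Most core spliceosome genes were higher under mitoxantrone, while under pyrimethamine they went both ways. Of the 47 genes tested, 29 were higher, 5 lower and 13 not called in mitoxantrone against control libraries (limma, adjusted p under 0.05). Over all 16950 genes, 69.3% were called in this comparison, 33.5% higher and 35.8% lower. The median log2 change of the 47 genes was 0.20, beside -0.0080 over all genes. In pyrimethamine against control libraries 13 were higher, 18 lower and 16 not called, where 53.3% of all genes were called, 26.4% higher and 26.9% lower, and the medians were -0.03 for the spliceosome genes and 0.0018 for all. Between the drugs, 30 were higher, 9 lower and 8 not called in mitoxantrone against pyrimethamine libraries, beside 76.4% of all genes called, 36.9% higher and 39.5% lower, with medians of 0.18 and -0.02. Log2 changes are on the scale of log2(normalized count + 1), and calls use Benjamini-Hochberg adjustment over all genes tested in a comparison.

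The spliceosome genes are well expressed, so the share called among genes averaging 100 normalized counts or more is a closer background. It was 41.8% higher and 35.0% lower for mitoxantrone against control, 30.6% and 34.6% for pyrimethamine against control, and 44.9% and 37.7% between the drugs. Counted without a test, 25 genes were higher with no overlap between the mitoxantrone and control libraries and 3 lower (29.9% and 31.0% of all genes), 12 were higher and 19 lower for pyrimethamine against control (25.8% and 25.4%), and 26 were higher and 9 lower between the drugs (33.3% and 35.5%). With every library rescaled to the same total, the first comparison had 24 spliceosome genes higher and 11 lower, and the second 8 higher and 20 lower. The shares of all genes were then 26.1% higher and 42.5% lower in the first, and 21.5% and 32.5% in the second. That rescaling moved the median log2 change of all genes to -0.11 for mitoxantrone against control. It shifts all genes of a library alike, so the spliceosome median minus the median of all genes, 0.21, could not change. Against genes averaging 100 normalized counts or more this difference was 0.16, and under quantile normalization, which can change it, 0.07. Between the drugs it was 0.20, against such genes 0.12 and under quantile normalization 0.09. In reads, the 47 genes together took 0.610% ± 0.0067 of all assigned reads under mitoxantrone, 0.549% ± 0.0041 under pyrimethamine and 0.588% ± 0.0064 in the controls (SD, n = 4 each).

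**Figure D1:**
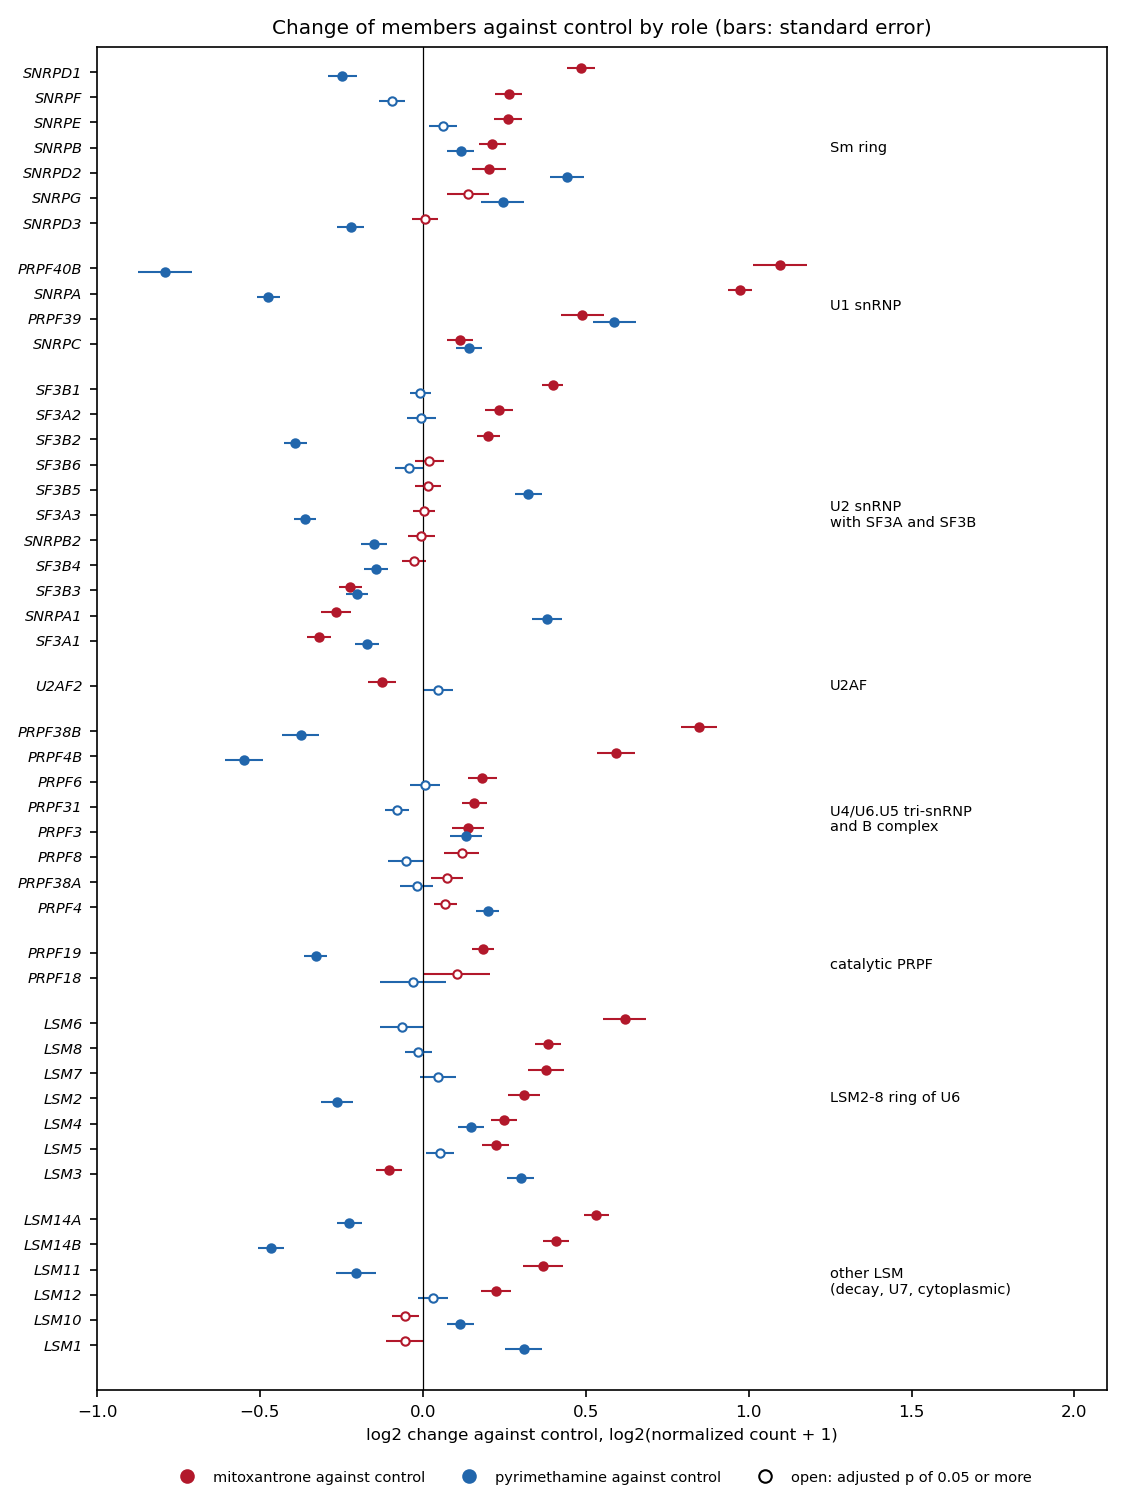
Log2 change of the tested core genes reported here, in mitoxantrone against control (red) and pyrimethamine against control (blue) libraries, grouped by role, with the standard error as bars and open circles where the adjusted p is 0.05 or more. In the U1 group all 4 red points are filled and right of 0, while the U2 group with SF3A and SF3B has 3 red points called on each side.

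Of the 7 Sm ring genes tested, mitoxantrone against control gave 5 higher, 0 lower and 2 not called, and their median log2 change was 0.21. The share higher was 71.4%, beside 33.5% higher and 35.8% lower over all genes. Against the controls, pyrimethamine gave 3 higher, 2 lower and 2 not called (42.9% and 28.6%, beside 26.4% and 26.9% of all genes). SNRPB encodes SmB and its splice form SmB′ (chr20:2461634-2470853 of GRCh38, as are all gene positions here). It had 21405, 23852, 23894 and 22862 normalized counts in the mitoxantrone libraries, 22245, 20247, 21068 and 22434 in the pyrimethamine libraries and 19077, 20069.6, 19909 and 20234 in the controls. Every library of both drugs lay above all controls, and the drug groups overlapped. The log2 changes were 0.21 (SE 0.042) for mitoxantrone against control (adjusted p = 1.07e-04) and 0.12 (SE 0.042) for pyrimethamine against control (adjusted p = 0.0226). The second call was lost under 6 alternatives, among them the same-total rescaling (adjusted p = 0.213) and leaving out control replicate 1 or pyrimethamine replicate 1 or 4.

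SNRPD2, encoding SmD2 (chr19:45687454-45692569), was the Sm gene that pyrimethamine raised most. It had 12625, 13856, 14204 and 14117 normalized counts under mitoxantrone, 15882, 15133, 15727 and 18034 under pyrimethamine and 11196, 11365, 12384 and 12707 in the controls. All pyrimethamine libraries were above every other library, and the mitoxantrone and control libraries overlapped. The change was 0.44 (SE 0.053) for pyrimethamine against control (adjusted p = 4.04e-07) and 0.20 (SE 0.053) for mitoxantrone against control (adjusted p = 0.00185). The mitoxantrone call was lost with libraries rescaled to the same total (adjusted p = 0.0786) and under quantile normalization (0.0738).

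SNRPD1, whose product SmD1 pairs with SmD2 in the ring, was also higher under mitoxantrone but lower under pyrimethamine. Its log2 change was 0.49 for mitoxantrone against control, -0.25 for pyrimethamine against control and 0.73 between the drugs, all called and with no overlap between groups. It averaged 8780.3 ± 249 normalized counts under mitoxantrone, 5282 ± 145 under pyrimethamine and 6277 ± 438 in the controls (SD, n = 4 each). SNRPD3, for SmD3, had -0.22 for pyrimethamine against control (called) and 0.0065 for mitoxantrone against control (not called), but 24.6% of its exon bases overlap GGT1 and GUCD1. GUCD1 had -0.14 for pyrimethamine against control and -0.17 for mitoxantrone against control, both called. GGT1, at low counts, had -0.78 and -1.29 in the same order, both called. SNRPE and SNRPF, whose products sit side by side in the ring, were higher under mitoxantrone by 0.26 and 0.26, and were not called for pyrimethamine (0.063 and -0.094). The pyrimethamine value of SNRPF lay near the threshold (adjusted p = 0.0554) and was called lower under 10 alternatives, among them edgeR (adjusted p = 0.0347), same-total rescaling (0.00312) and leaving out control replicate 1 (0.0449), control replicate 2 (0.0387), pyrimethamine replicate 4 (0.0173) or mitoxantrone replicate 1 (0.0384). Copies of SNRPE, such as SNRPEP4, hold 11.7% of its 50-base stretches. SNRPG was higher for pyrimethamine against control at 0.25 and was not called for mitoxantrone against control at 0.14 (adjusted p = 0.0664). Without mitoxantrone replicate 1, control replicate 3 or pyrimethamine replicate 4 that adjusted p was 0.00474, 0.0251 or 0.0377.

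SNRPN, the imprinted gene for the tissue-restricted SmN, failed the filter. It had 0 reads in 11 libraries and 1 read in pyrimethamine replicate 1, and 0 reads in a library allow up to 3. Of its exon bases, 33.6% overlap SNURF, SNHG14 or AC124312.1, and the multi-overlap setting of the counting is not given. Reads in the shared part may not have been counted, so the level of SNRPN is uncertain.

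All 5 U1 genes were higher under mitoxantrone, beside 33.5% of all genes. Pyrimethamine against control gave 2 higher and 3 lower (40.0% and 60.0%, beside 26.4% and 26.9% of all genes). SNRPA encodes the U1 protein that binds a stem-loop of U1 RNA (chr19:40750637-40765389). It had 8321, 8374, 8885 and 8464 normalized counts in the mitoxantrone libraries, 3142, 3196, 3058 and 3090.3 in the pyrimethamine libraries and 4259.9, 4515, 4248 and 4324 in the controls. The 3 groups formed separate bands, with mitoxantrone on top and pyrimethamine at the bottom. SNRPA was 1.96-fold higher in mitoxantrone than in control libraries (log2 change 0.97 (SE 0.036), adjusted p = 2.26e-15). In pyrimethamine libraries it was 1.39-fold lower than in the controls (log2 change -0.47 (SE 0.036), adjusted p = 7.19e-10). Mitoxantrone libraries held 2.73-fold higher values than pyrimethamine libraries (adjusted p = 1.09e-18).

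PRPF40B, a human relative of the yeast U1 protein Prp40 (chr12:49568218-49644666), showed the largest differences of the 47 genes in all 3 comparisons, at low levels. It had 727, 808, 743 and 813 normalized counts under mitoxantrone, 199, 202, 201 and 231 under pyrimethamine and 375, 365, 328 and 376 in the controls. No libraries of different groups overlapped. The log2 change was 1.10 (SE 0.084) for mitoxantrone against control (adjusted p = 1.94e-10), -0.79 (SE 0.084) for pyrimethamine against control (adjusted p = 8.01e-08) and 1.89 between the drugs. Of its annotated exon bases, 48.7% overlap FMNL3 or FAM186B, and the strand setting of the counting is not given in the sources used here. FMNL3 averaged 1431 ± 43.4 normalized counts under mitoxantrone, 1205 ± 79.7 under pyrimethamine and 1560.0 ± 70.7 in the controls (SD, n = 4 each), with log2 changes of -0.12, -0.37 and 0.25 for the comparisons in the same order.

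PRPF39, related to the yeast U1 protein Prp39 (chr14:45084099-45116282), differed from SNRPA and PRPF40B in its response to pyrimethamine. It had 955, 904, 993 and 954 normalized counts under mitoxantrone, 934, 1035, 1056 and 1055 under pyrimethamine and 603, 682, 686 and 744 in the controls. Both drug groups lay above all controls and overlapped each other. The log2 change was 0.49 (SE 0.067) for mitoxantrone against control (adjusted p = 1.38e-06) and 0.59 (SE 0.067) for pyrimethamine against control (adjusted p = 2.25e-07), and the difference between the drugs was -0.10 (95% confidence interval -0.24 to 0.041, adjusted p = 0.187). SNRPC, whose product steadies the pairing of U1 with the intron start, had 0.11 for mitoxantrone against control and 0.14 for pyrimethamine against control. Both SNRPC calls were lost with libraries rescaled to the same total (adjusted p = 0.757 and 0.062), and the mitoxantrone call also under upper-quartile rescaling (0.139), under quantile normalization (0.284) and without mitoxantrone replicate 2 (0.071) or 3 (0.0507).

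**Figure D2:**
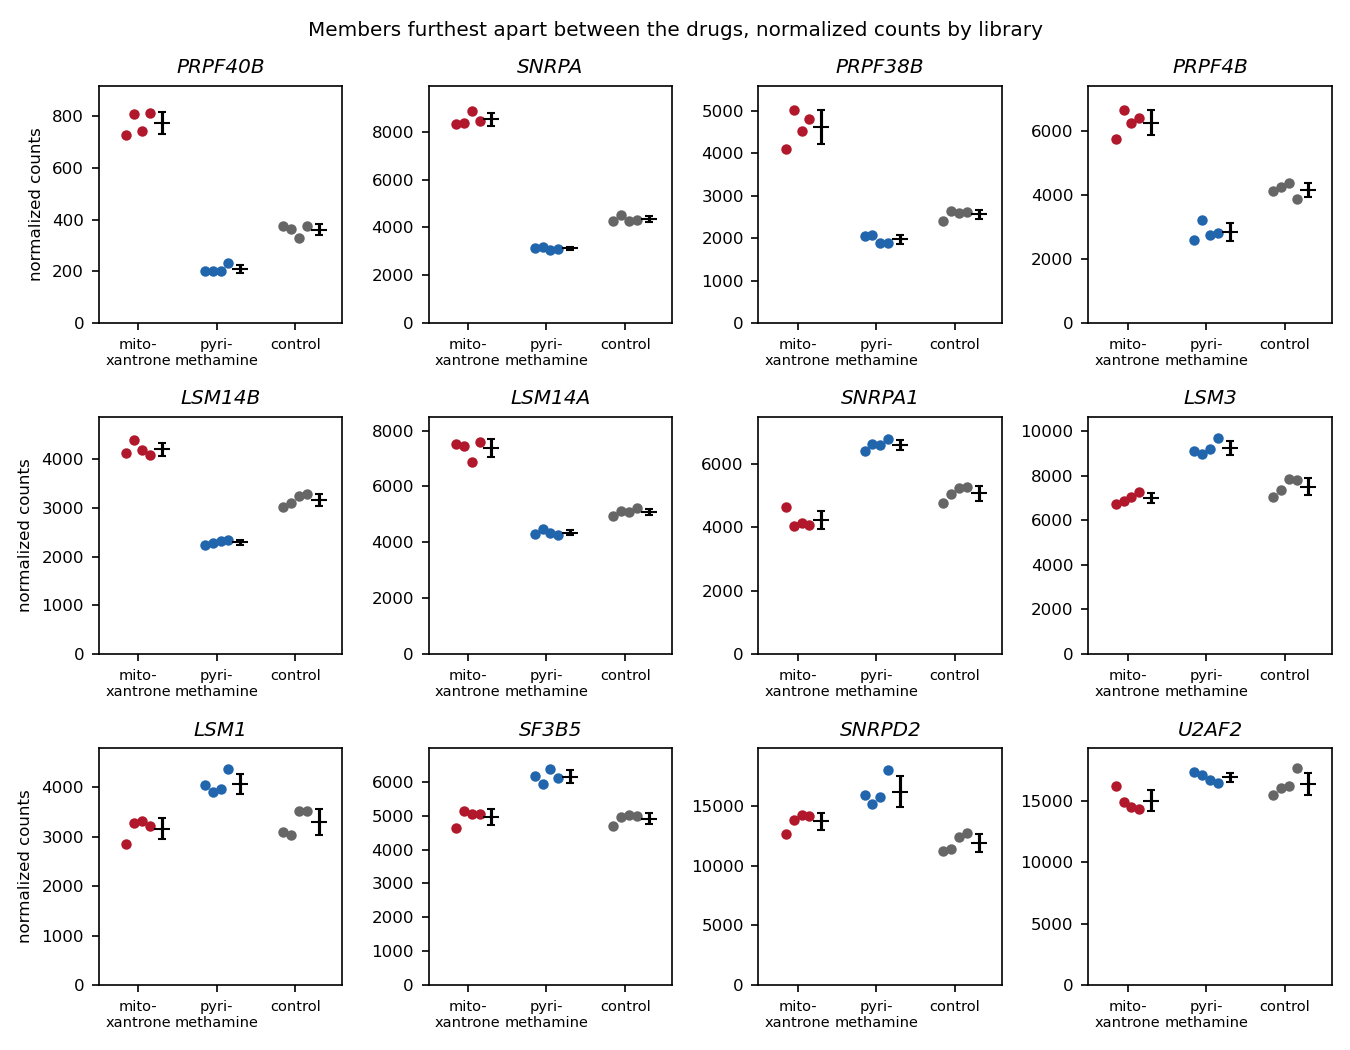
Normalized counts of 12 genes in each library (points), with the mean and the SD of 4 libraries beside them (bars), for the 6 largest called rises and 6 largest called falls in mitoxantrone against pyrimethamine libraries. SNRPA lies at 8321 to 8885 under mitoxantrone, 3058 to 3196 under pyrimethamine and 4248 to 4515 in the controls, and in the panel of SNRPA1 the pyrimethamine libraries are on top.

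The U2 proteins with SF3A and SF3B went both ways. Of 11 genes, 3 were higher, 3 lower and 5 not called in mitoxantrone against control libraries, with a median log2 change of 0.0029. That is 27.3% each way, below the 33.5% higher and 35.8% lower of all genes. In pyrimethamine against control libraries 2 were higher, 6 lower and 3 not called, with a median of -0.14. These were 18.2% higher and 54.5% lower, beside 26.4% and 26.9% of all genes. SNRPA1 encodes the leucine-rich protein of U2 (chr15:101281510-101295282). It had 4644, 4056, 4140.2 and 4069 normalized counts under mitoxantrone, 6419, 6644, 6591 and 6788 under pyrimethamine and 4759, 5042, 5251 and 5274 in the controls. The order was the reverse of that of SNRPA, with pyrimethamine on top, mitoxantrone at the bottom and no overlap. The log2 change was -0.27 (SE 0.045) for mitoxantrone against control (adjusted p = 2.20e-05), 0.38 (SE 0.045) for pyrimethamine against control (adjusted p = 3.93e-07) and -0.65 between the drugs (adjusted p = 2.17e-11). Other genes share 11.7% of the 50-base stretches of its transcripts, mainly the copy AL078621.1. SNRPB2, whose product is the partner of that protein on U2 RNA, had -0.0042 for mitoxantrone against control (not called) and -0.15 for pyrimethamine against control (called). With libraries rescaled to the same total, SNRPB2 was called lower for mitoxantrone against control (adjusted p = 0.0238).

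SF3B1, the large subunit that clamps the branch point and the target of several splicing inhibitors (chr2:197389784-197435091), was higher under mitoxantrone. It had 20205, 20356, 21034 and 20528 normalized counts under mitoxantrone, 15428, 15663, 15196 and 15640.1 under pyrimethamine and 15029, 15953, 15927 and 15388 in the controls. The pyrimethamine and control libraries overlapped and all mitoxantrone libraries were above both. SF3B1 was 1.32-fold higher in mitoxantrone than in control libraries (log2 change 0.40 (SE 0.033), adjusted p = 5.69e-10). For pyrimethamine against control its log2 change was -0.0083 (95% confidence interval -0.076 to 0.06, adjusted p = 0.853), and between the drugs it was 0.41 (adjusted p = 2.19e-10).

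SF3B2, which contacts pre-mRNA around the branch site (chr11:66050729-66069308), was lower in pyrimethamine libraries. It had 28674, 28582, 27339 and 26550.2 normalized counts under mitoxantrone, 18620.3, 19083, 18156 and 17862 under pyrimethamine and 23771, 24569, 23532 and 24790.0 in the controls, in 3 bands without overlap. The change was -0.39 (SE 0.036) for pyrimethamine against control (adjusted p = 1.06e-08) and 0.20 (SE 0.036) for mitoxantrone against control (adjusted p = 4.35e-05, and 0.0533 under quantile normalization). SF3B3, a large scaffold subunit of SF3B, was lower under both drugs (chr16:70523788-70577670). It had 21365, 22062, 21144 and 20177 normalized counts under mitoxantrone, 21801, 20972, 21706 and 21424 under pyrimethamine and 24857, 25252, 24804 and 23948 in the controls. Both drug groups were below all controls, with -0.22 (SE 0.035) for mitoxantrone against control (adjusted p = 7.45e-06) and -0.20 (SE 0.035) for pyrimethamine against control (adjusted p = 4.21e-05).

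SF3B5 encodes the smallest SF3B subunit, from a gene with 1 exon of 693 bases (chr6:144094881-144095573). It had 4626, 5134, 5058 and 5064 normalized counts under mitoxantrone, 6179.5, 5935, 6393 and 6109.5 under pyrimethamine and 4687, 4968, 5014 and 4995 in the controls. Pyrimethamine libraries were above all others, at 0.32 (SE 0.04) against the controls (adjusted p = 7.60e-07), while mitoxantrone and control libraries overlapped (0.015, adjusted p = 0.751). SF3B4 had -0.14 for pyrimethamine against control (called) and -0.026 for mitoxantrone against control (not called). The latter was called lower with libraries rescaled to the same total (adjusted p = 0.00402) and under quantile normalization (0.0132). SF3B6, the subunit that touches the branch point, passed in none of the 3 comparisons, with log2 changes of 0.02, -0.043 and 0.063 for mitoxantrone against control, pyrimethamine against control and mitoxantrone against pyrimethamine.

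Among the 3 SF3A genes, SF3A1, which encodes the largest subunit of SF3A (chr22:30331988-30356947), was lower under both drugs. It had 12129, 12089, 11578 and 11251 normalized counts under mitoxantrone, 13209, 12949, 12922 and 13012 under pyrimethamine and 14713, 15466, 14129 and 14371 in the controls. All controls were on top and all mitoxantrone libraries at the bottom. SF3A1 had the largest fall of the 47 genes in mitoxantrone against control libraries, at -0.32 (SE 0.036) (adjusted p = 9.21e-08), and -0.17 (SE 0.036) for pyrimethamine against control (adjusted p = 4.23e-04). SF3A2 was higher under mitoxantrone (0.23 against control) and SF3A3 lower under pyrimethamine (-0.36 against control). The other drug gave -0.0047 for SF3A2 and 0.0029 for SF3A3 against control, neither of which passed. With libraries rescaled to the same total, SF3A3 was called lower for mitoxantrone against control at -0.098 (adjusted p = 0.0108), beside a median of -0.11 over all genes.

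U2AF2 encodes the U2AF subunit that binds the polypyrimidine tract (chr19:55654146-55674715). It had 16183, 14902, 14514 and 14298 normalized counts under mitoxantrone, 17297, 17095, 16698 and 16418 under pyrimethamine and 15486, 16046, 16178 and 17668 in the controls. Mitoxantrone and control libraries overlapped, since mitoxantrone replicate 1 lay above 3 controls. The change was -0.13 (SE 0.043) for mitoxantrone against control (adjusted p = 0.0135, and 0.0704 without control replicate 4), 0.048 (SE 0.043) for pyrimethamine against control (adjusted p = 0.372) and -0.17 between the drugs (adjusted p = 0.00105). U2AF1, for the subunit that reads the end of the intron, failed the filter and was not tested. It had 6.2, 5.72, 7.42 and 7.17 normalized counts in the mitoxantrone libraries, 3.56, 7.88, 5.12 and 11 in the pyrimethamine libraries and 1.87, 3.3, 3.11 and 6.59 in the controls, of which single libraries held 2 to 10 reads. U2AF1L5, a copy that holds 94.3% of the 50-base stretches of U2AF1, averaged 66.6 ± 9.31, 54.5 ± 6.34 and 54.2 ± 7.04 normalized counts in the same groups (SD, n = 4 each). Reads of U2AF1 and this copy cannot be told apart over most of their length, so the level of U2AF1 is uncertain.

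**Figure D3:**
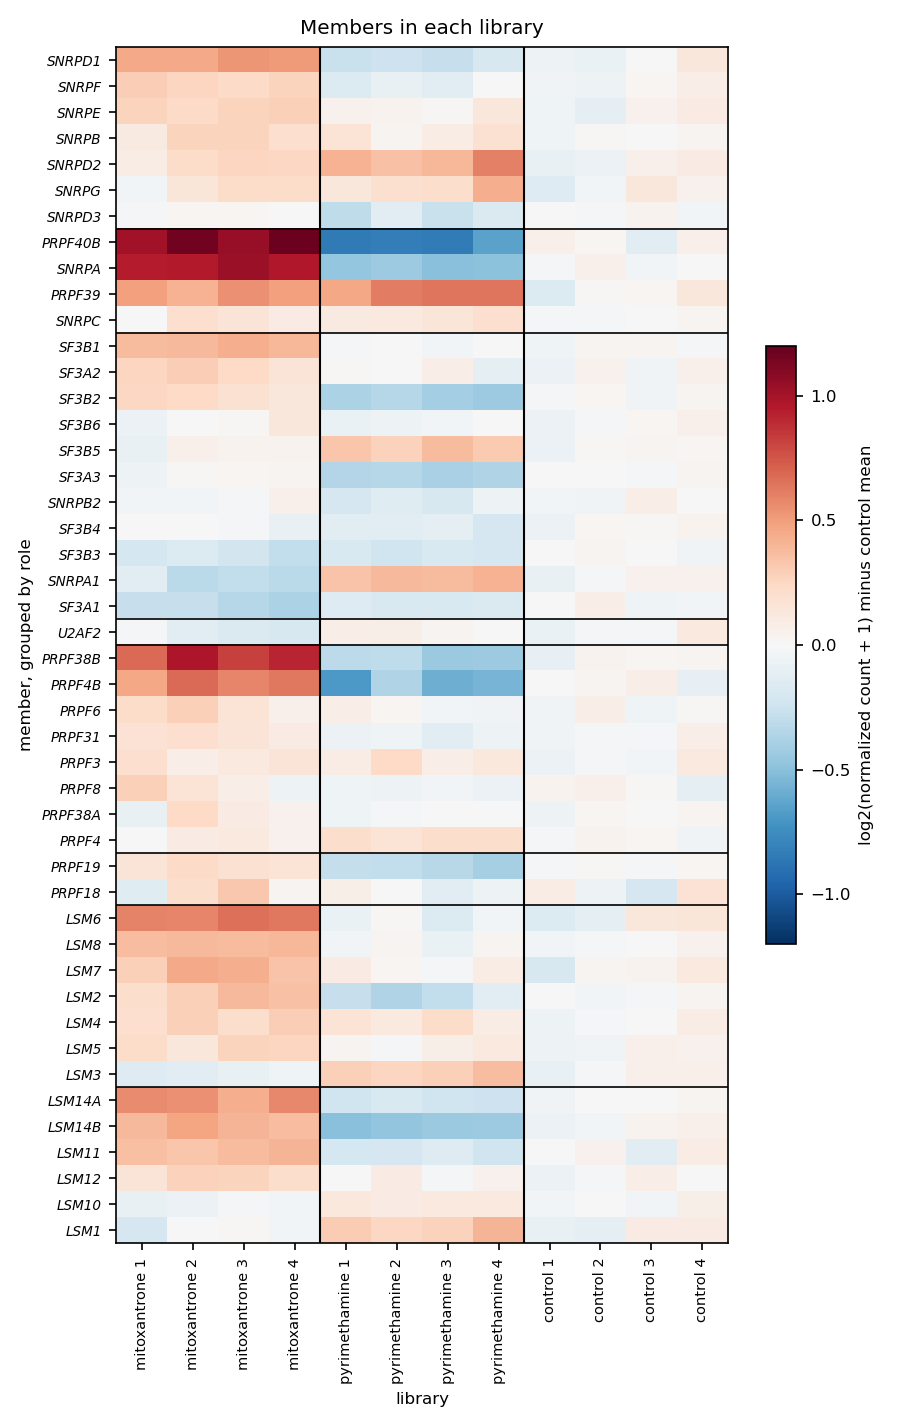
Log2(normalized count + 1) of the same genes in each of the 12 libraries, minus the mean of the 4 control libraries, by role, with blue below and red above that mean. PRPF40B, SNRPA, PRPF38B and PRPF4B are red in all mitoxantrone columns and blue in all pyrimethamine columns, SNRPA1 and LSM3 show the opposite, and PRPF39 is red in both.

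Of the 8 PRPF genes of the tri-snRNP and its activation, 5 were higher, 0 lower and 3 not called in mitoxantrone against control libraries. The share higher was 62.5%, beside 33.5% higher and 35.8% lower over all genes. In pyrimethamine against control libraries 2 were higher, 2 lower and 4 not called. That is 25.0% each way, close to the 26.4% and 26.9% of all genes. PRPF38B, related to the yeast activation factor Prp38 (chr1:108692323-108701803), differed most. It had 4112, 5019, 4536 and 4821 normalized counts under mitoxantrone, 2055, 2077, 1886 and 1890.1 under pyrimethamine and 2398, 2641, 2597 and 2622 in the controls. The groups did not overlap. PRPF38B was 1.80-fold higher in mitoxantrone than in control libraries (log2 change 0.85 (SE 0.056), adjusted p = 1.64e-11) and 1.30-fold lower in pyrimethamine than in control libraries (log2 change -0.38 (SE 0.056), adjusted p = 7.06e-06).

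PRPF4B encodes a kinase that phosphorylates proteins of the tri-snRNP (chr6:4021267-4064983). It had 5749, 6659.8, 6249 and 6423 normalized counts under mitoxantrone, 2583, 3227, 2763 and 2822 under pyrimethamine and 4133, 4253, 4381 and 3869.7 in the controls, again in 3 separate bands. The change was 0.59 (SE 0.058) for mitoxantrone against control (adjusted p = 1.02e-08), -0.55 (SE 0.058) for pyrimethamine against control (adjusted p = 7.94e-08) and 1.14 between the drugs. PRPF38A, the closer relative of the yeast factor, passed in none of the 3 comparisons, with 0.074 for mitoxantrone against control (95% confidence interval -0.031 to 0.18). Without mitoxantrone replicate 1, the lowest of its group, that value was 0.13 (adjusted p = 0.0113).

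PRPF8, the scaffold around the catalytic RNA and the gene with the highest count of the 47 (chr17:1650629-1684882), was not called against the controls for either drug. It had 48167, 44433, 41946 and 38046 normalized counts under mitoxantrone, 38208, 37846, 38706 and 37811 under pyrimethamine and 40789, 41303, 39967 and 36425 in the controls. The mitoxantrone libraries were spread widely and overlapped both other groups. The log2 change was 0.12 (SE 0.054) for mitoxantrone against control (adjusted p = 0.0549), -0.053 (SE 0.054) for pyrimethamine against control (adjusted p = 0.428) and 0.17 (SE 0.054) between the drugs (adjusted p = 0.00651, and 0.298 under quantile normalization). PRPF8 was called higher for mitoxantrone against control without mitoxantrone replicate 4 (0.18, adjusted p = 0.00248) or control replicate 2 (0.14, adjusted p = 0.045), by edgeR (adjusted p = 0.0343) and by DESeq2 (adjusted p = 0.0422). For pyrimethamine against control it was called lower under quantile normalization (adjusted p = 0.0337).

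PRPF6, the bridge between U5 and U4/U6, and the U4/U6 proteins PRPF31 and PRPF3 were higher for mitoxantrone against control by 0.18, 0.16 and 0.14. All 3 calls were lost with libraries rescaled to the same total (adjusted p = 0.114, 0.181 and 0.526), and that of PRPF3 also without control replicate 1 (0.0636). PRPF4, another U4/U6 protein, was higher for pyrimethamine against control at 0.20. PRPF3 was called there too, at 0.13, but not with control replicate 1, 2 or 3 or pyrimethamine replicate 2 left out (adjusted p = 0.0651 to 0.124). PRPF31 overlaps TFPT or AC245052.4 in 32.0% of its exon bases. TFPT had 0.02 for mitoxantrone against control (not called), -0.235 for pyrimethamine against control and 0.255 between the drugs (both called). AC245052.4 was not called in any comparison.

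PRPF19, the ubiquitin ligase at the center of the complex that activates the spliceosome, averaged 15834 ± 380.1 normalized counts under mitoxantrone, 11092 ± 393 under pyrimethamine and 13930.4 ± 216 in the controls (SD, n = 4 each). It was higher for mitoxantrone against control (0.18), lower for pyrimethamine against control (-0.33) and 1.43-fold higher in mitoxantrone than in pyrimethamine libraries (adjusted p = 1.03e-11). PRPF18, which acts at the second catalytic step, averaged 464 ± 65.9, 420.2 ± 24.9 and 431 ± 48.2 normalized counts in the same groups and passed in none of the 3 comparisons. Of its exon bases, 48.5% overlap other genes, and 37.1% of its 50-base stretches also lie in the copy AL157392.5. PRPF18 and PRPF40B held the lowest mean counts of the genes inside the filter, and U2AF1 and SNRPN fell outside it.

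The ring of LSM2 to LSM8 that binds the tail of U6 RNA was higher under mitoxantrone in 6 of 7 genes, with LSM3 lower. These were 85.7% and 14.3%, beside 33.5% and 35.8% of all genes. The median log2 change was 0.31 for mitoxantrone against control and 0.047 for pyrimethamine against control, where 2 genes were higher, 1 lower and 4 not called. Those pyrimethamine shares were 28.6% and 14.3%, beside 26.4% and 26.9% of all genes. LSM6 (chr4:146175685-146200000) had 1719, 1710.5, 1796 and 1758 normalized counts under mitoxantrone, 1077, 1148, 1012 and 1112 under pyrimethamine and 1016, 1046, 1246 and 1256 in the controls. The mitoxantrone libraries stood above all others, while pyrimethamine and control libraries overlapped. LSM6 was 1.54-fold higher in mitoxantrone than in control libraries (log2 change 0.62 (SE 0.066), adjusted p = 3.61e-08), and the pyrimethamine against control value was -0.064 (adjusted p = 0.434). The other risers for mitoxantrone against control were LSM8 (0.38), LSM7 (0.38), LSM2 (0.31), LSM4 (0.25) and LSM5 (0.22).

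LSM3 (chr3:14178358-14201119) was the exception in the U6 ring. It had 6755, 6856, 7072 and 7268 normalized counts under mitoxantrone, 9136, 8966, 9184 and 9707 under pyrimethamine and 7041, 7367, 7841 and 7813 in the controls. Pyrimethamine libraries were above all others, and mitoxantrone and control libraries overlapped. The change was 0.30 (SE 0.041) for pyrimethamine against control (adjusted p = 2.27e-06), -0.40 between the drugs (adjusted p = 8.87e-09) and -0.10 (SE 0.041) for mitoxantrone against control (adjusted p = 0.0275). That last call was lost under 6 alternatives, with adjusted p-values of 0.0564 to 0.0991, including control replicate 3 or 4 and mitoxantrone replicate 1 or 2 left out. LSM2 was lower for pyrimethamine against control (-0.26) and LSM4 higher (0.15, adjusted p = 0.0579 with libraries rescaled to the same total).

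Of the LSM proteins outside the U6 ring, 4 of 6 genes were higher and 0 lower for mitoxantrone against control. The share higher was 66.7%, beside 33.5% higher and 35.8% lower over all genes. For pyrimethamine against control 2 were higher and 3 lower (33.3% and 50.0%, beside 26.4% and 26.9% of all genes). LSM14A and LSM14B encode proteins of cytoplasmic P-bodies, where mRNAs are held from translation. LSM14A (chr19:34172504-34229515) had 7511, 7449.7, 6888 and 7598 normalized counts under mitoxantrone, 4303, 4491, 4320.2 and 4272 under pyrimethamine and 4932, 5108, 5089 and 5211 in the controls. LSM14B (chr20:62122461-62135378) had 4127, 4393, 4187 and 4091 under mitoxantrone, 2227, 2277, 2321 and 2332 under pyrimethamine and 3018, 3097, 3248 and 3290.0 in the controls. Both genes formed 3 bands without overlap, mitoxantrone highest and pyrimethamine lowest. For mitoxantrone against control the changes were 0.53 (SE 0.038) for LSM14A (adjusted p = 6.24e-11) and 0.41 (SE 0.041) for LSM14B (adjusted p = 1.29e-08). For pyrimethamine against control they were -0.23 (SE 0.038) (adjusted p = 3.39e-05) and -0.47 (SE 0.041) (adjusted p = 4.93e-09).

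LSM1 takes the place of LSM8 in the cytoplasmic ring that starts mRNA decay. It had 2852, 3275, 3320.1 and 3212 normalized counts under mitoxantrone, 4049.6, 3903, 3974 and 4363 under pyrimethamine and 3092, 3036, 3515 and 3526 in the controls. Pyrimethamine libraries were above all others, at 0.31 (SE 0.057) against the controls (adjusted p = 9.25e-05), and mitoxantrone and control libraries overlapped (-0.056, adjusted p = 0.388). Of its exon bases, 38.5% overlap BAG4 or AC084024.3, and BAG4 had log2 changes of -0.16 for mitoxantrone against control, 0.32 for pyrimethamine against control and -0.48 between the drugs, all called. LSM10 and LSM11 replace SmD1 and SmD2 on U7, the snRNP of histone mRNA processing. LSM11 was higher for mitoxantrone against control (0.37) and lower for pyrimethamine against control (-0.20), while LSM10 had -0.054 (not called) and 0.12 (adjusted p = 0.0256). That call of LSM10 was lost with any of control replicates 1, 2 and 3 or pyrimethamine replicates 1 and 3 left out (adjusted p = 0.0509 to 0.0696). LSM12 was higher for mitoxantrone against control (0.23), though 20.4% of its 50-base stretches also lie in other genes, mostly LSM12P1.

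Measured directly between the drugs, 4 of the 47 genes differed at least 2-fold, all higher under mitoxantrone. These were PRPF40B (3.70-fold higher), SNRPA (2.73-fold higher), PRPF38B (2.33-fold higher) and PRPF4B (2.20-fold higher), and 2 of the 4 are U1 genes. The share of all genes that differed at least 2-fold was not counted, so this number has no background beside it. The 9 genes that were lower in mitoxantrone than in pyrimethamine libraries were SNRPA1, LSM3, LSM1, SF3B5, SNRPD2, U2AF2, LSM10, SF3A1 and PRPF4, with log2 changes of -0.65 to -0.13. In the U2 group with SF3A and SF3B, 6 genes were higher, 3 lower and 2 not called between the drugs (54.5% and 27.3%). For the LSM ring of U6 these counts were 6 higher, 1 lower and 0 not called (85.7% and 14.3%). Over all genes 36.9% were higher and 39.5% lower in this comparison.

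Levels per kilobase depend on the length used, so both are given: that of all annotated exons of a gene, and that of its longest coding transcript. SNRPB was highest on both. Per kilobase of exon it had 17999 ± 913 normalized counts under mitoxantrone, 16822 ± 806 under pyrimethamine and 15510.3 ± 402 in the controls (SD, n = 4 each), and SNRPD2, next in order, had 8520.1 ± 455, 10071 ± 789 and 7409 ± 463 in the same groups. Per kilobase of coding transcript, SNRPD2 at 17973 ± 1408 and SNRPB at 18630 ± 893 did not differ beyond their spread under pyrimethamine. The single-exon gene SF3B5 came after these per kilobase of exon (7173 ± 335, 8881 ± 273 and 7094 ± 222 in the same groups). Per kilobase of coding transcript, LSM7 lay above SF3B5 under mitoxantrone, at 10317 ± 571, and in the controls, at 7957 ± 711. PRPF40B was lowest per kilobase of exon, with 81.9 ± 4.7, 22.1 ± 1.6 and 38.2 ± 2.4 in the same groups. Per kilobase of coding transcript, LSM11 was lowest under mitoxantrone, at 145 ± 3.0 beside 215 ± 12.2 for PRPF40B. The products of the Sm genes stand in equal number in the ring, and the control levels of the 7 tested ranged from 1279 per kilobase of exon for SNRPD1 to 15510.3 for SNRPB. Between replicates, the coefficient of variation ran from 0.78% (LSM8) to 14.2% (PRPF18) under mitoxantrone, ran from 0.87% (LSM10) to 9.63% (SNRPG) under pyrimethamine and reached 11.2% (PRPF18) in the controls.

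Other genes, taken from lists of known factors, were counted beside the core set. Most act in splicing, but 8 are partners of LSM1 in mRNA decay and 7 are partners of U7 in histone mRNA processing. Of 107 such genes, 67 were higher, 17 lower and 23 not called for mitoxantrone against control. These were 62.6% higher and 15.9% lower, beside 33.5% and 35.8% of all genes tested. Among genes averaging 100 normalized counts or more, the shares were 41.8% and 35.0%. The median log2 change of the 107 was 0.18, beside -0.0080 over all genes. With libraries rescaled to the same total, 48 of the 107 were higher and 26 lower, beside 26.1% and 42.5% of all genes. For pyrimethamine against control 18 were higher, 49 lower and 40 not called, with a median of -0.10, beside 0.0018 over all genes. These were 16.8% higher and 45.8% lower, beside 26.4% and 26.9% of all genes. Among genes averaging 100 or more, the shares were 30.6% and 34.6%. Between the drugs 71 were higher, 14 lower and 22 not called, with a median of 0.28, beside -0.02 over all genes. These were 66.4% and 13.1%, beside 36.9% and 39.5% of all genes. The U2-associated factors had 10 of 11 higher and 0 lower for mitoxantrone against control, and 0 higher and 7 lower for pyrimethamine against control. Among the U1 and early factors, 8 of 10 were higher and 0 lower for mitoxantrone against control, and 2 were higher and 7 lower for pyrimethamine against control.

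ACIN1, an accessory protein of the exon junction complex, averaged 9439 ± 557 normalized counts under mitoxantrone, 4562 ± 213 under pyrimethamine and 5201 ± 211 in the controls (SD, n = 4 each). Its log2 changes were 0.86 for mitoxantrone against control, -0.19 for pyrimethamine against control and 1.05 for mitoxantrone against pyrimethamine, all called. GEMIN8, of the SMN complex that loads Sm rings, had 0.90 for mitoxantrone against control and was not called for pyrimethamine against control (0.053). WDR77, of the complex that methylates Sm proteins before assembly, rose for pyrimethamine against control (0.62) and was not called for mitoxantrone against control (0.0059). DCP2, the decapping enzyme of the pathway that LSM1 serves, rose under both drugs, with 0.65 for mitoxantrone and 0.72 for pyrimethamine against control.

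Of 8 genes of the minor spliceosome, which removes a rare class of introns, 4 were higher and 2 lower for mitoxantrone against control. These were 50.0% and 25.0%, beside 33.5% and 35.8% of all genes. For pyrimethamine against control 2 were higher and 4 lower (25.0% and 50.0%, beside 26.4% and 26.9% of all genes). Those named below, among the largest called changes, belong to its U11/U12 snRNP and moved apart. SNRNP48 averaged 1505 ± 39.3 normalized counts under mitoxantrone, 559.7 ± 21.4 under pyrimethamine and 1237 ± 21.8 in the controls (SD, n = 4 each). It was 2.21-fold lower in pyrimethamine than in control libraries (log2 change -1.14 (SE 0.052), adjusted p = 3.67e-13), the largest fall of the 107 genes. SNRNP25 and ZMAT5, of the same snRNP, were higher for pyrimethamine against control (0.38 and 0.56) and lower for mitoxantrone against control (-0.31 and -0.13). DDX46, a helicase that works with U2, was lower for pyrimethamine against control (-0.49). For mitoxantrone against control the largest falls were in SNRNP27 of the tri-snRNP (-0.35), the SMN complex helicase DDX20 (-0.33) and the splicing helicase DHX38 (-0.33).

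**Figure D4:**
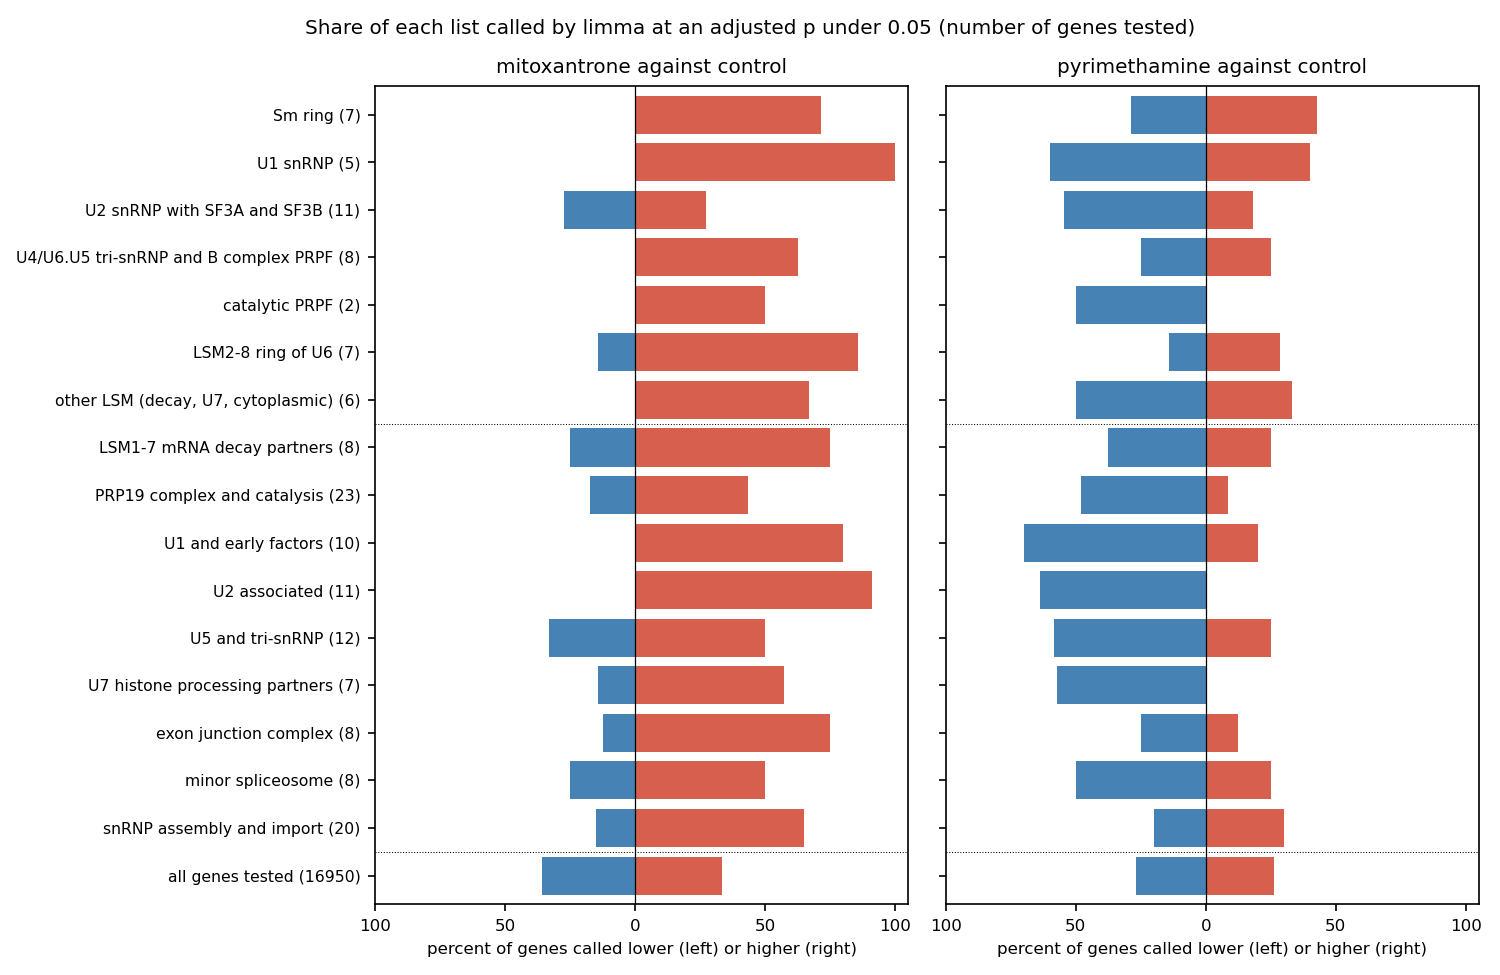
Percent of each list called higher (red, to the right) or lower (blue, to the left) by limma, in mitoxantrone against control (left panel) and pyrimethamine against control (right panel) libraries, with the number of genes tested in brackets. The 7 upper rows are roles of the core set. The 9 rows below them are lists of other genes, of splicing and of the partners of LSM1 in decay and of U7. The last row is all 16950 genes tested, of which 33.5% were higher and 35.8% lower for mitoxantrone and 26.4% and 26.9% for pyrimethamine.

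The promoters of the core genes were searched for short motifs, which played no part in choosing the genes. Windows of 250 bases before the start of transcription came from RefSeq (GRCh38.p14), 1 per gene, at the start farthest upstream. They were found for 38 of the 47 genes, 11116 of the genes tested and 27305 genes in all. Both strands were searched for 5 motifs, none of which contains another: the antioxidant response element core TGACNNNGC, which NRF2 binds, the E-box CACGTG, the ETS motif CCGGAAG, the NRF1 motif and the CCAAT box. The ETS motif was in 18 of the 38 windows (47.4%), beside 14.8% of windows of genes tested and 8.8% of all. Of the 38 windows, 10 lie wholly in annotated exons, 5 of them with the ETS motif, and the other 28 held it in 13 (46.4%). The first 12 bases after the RefSeq start were also the first of a GENCODE transcript of the same gene for 31.9% of plus-strand and 32.2% of minus-strand starts. These shares count all RefSeq starts of a gene, and not only the start used for its window. The response element core was in 4 of 38 (10.5%, in LSM3, LSM5, PRPF19 and SF3B6), beside 12.4% of genes tested and 11.1% of all. The CCAAT box was in 15 (39.5%, beside 35.1% of genes tested and 33.0% of all), the E-box in 1 (SF3B1, 2.6%, beside 8.6% and 6.5%) and the NRF1 motif in 1 (LSM7, 2.6%, beside 1.9% and 1.1%). A match is a run of letters and not a shown binding site. The 6 windows below have at most 30 bases in annotated exons, and capitals mark every match to the 5 motifs on either strand. They belong to the 3 genes among these that were most above pyrimethamine under mitoxantrone (PRPF38B at chr1:108692060-108692309 on the plus strand, LSM14B at chr20:62122225-62122474 on the plus strand and LSM2 at chr6:31806967-31807216 on the minus strand), to the 2 that were below it (SF3B5 at chr6:144095574-144095823 and LSM10 at chr1:36397909-36398158, both on the minus strand) and to PRPF6 at chr20:63980882-63981131 on the plus strand. Each is printed in the direction of the gene.
PRPF38B: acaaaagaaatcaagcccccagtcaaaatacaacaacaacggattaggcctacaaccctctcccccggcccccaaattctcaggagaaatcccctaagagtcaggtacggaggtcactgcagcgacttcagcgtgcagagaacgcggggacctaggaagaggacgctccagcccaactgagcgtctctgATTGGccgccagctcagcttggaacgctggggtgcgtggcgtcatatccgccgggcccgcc
LSM14B: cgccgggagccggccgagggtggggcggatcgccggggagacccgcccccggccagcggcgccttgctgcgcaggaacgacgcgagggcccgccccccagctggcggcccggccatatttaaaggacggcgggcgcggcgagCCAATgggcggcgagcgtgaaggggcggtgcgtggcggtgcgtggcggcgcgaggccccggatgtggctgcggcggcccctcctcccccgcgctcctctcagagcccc
LSM2: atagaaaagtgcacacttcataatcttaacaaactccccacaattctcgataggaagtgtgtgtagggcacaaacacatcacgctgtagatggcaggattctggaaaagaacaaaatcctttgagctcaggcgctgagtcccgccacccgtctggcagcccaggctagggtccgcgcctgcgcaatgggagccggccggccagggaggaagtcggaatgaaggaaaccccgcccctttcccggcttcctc
SF3B5: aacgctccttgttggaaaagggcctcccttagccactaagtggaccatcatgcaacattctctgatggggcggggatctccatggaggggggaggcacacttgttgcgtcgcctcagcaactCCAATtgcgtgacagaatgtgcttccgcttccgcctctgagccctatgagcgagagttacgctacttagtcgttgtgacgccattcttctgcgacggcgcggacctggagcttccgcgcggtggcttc
LSM10: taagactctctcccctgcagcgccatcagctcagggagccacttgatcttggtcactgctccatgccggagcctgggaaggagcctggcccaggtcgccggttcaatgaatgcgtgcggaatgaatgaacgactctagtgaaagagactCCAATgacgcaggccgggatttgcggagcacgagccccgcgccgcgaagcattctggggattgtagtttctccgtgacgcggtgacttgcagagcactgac
PRPF6: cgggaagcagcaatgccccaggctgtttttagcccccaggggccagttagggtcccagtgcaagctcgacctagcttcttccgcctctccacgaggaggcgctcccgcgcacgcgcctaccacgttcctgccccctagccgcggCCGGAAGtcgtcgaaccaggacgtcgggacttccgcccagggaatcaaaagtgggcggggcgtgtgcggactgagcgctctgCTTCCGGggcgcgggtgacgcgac
PRPF38B and LSM14B, higher under mitoxantrone than under pyrimethamine, and SF3B5 and LSM10, lower there, each carry 1 CCAAT box, as CCAAT or its reverse complement ATTGG. LSM2 has none of the 5 motifs in its window. PRPF6 has 2 ETS matches, as CCGGAAG and its reverse complement CTTCCGG. The response element core is in none of the 6, which says only that these letters are not in these windows.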

How the data were processed

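RNA-seq libraries of KYSE70 cells, 4 per group, were analysed from 1 table of normalized counts per gene. Per the submitters' processing notes, the tools were featureCounts 1.5.1, STAR 2.6.90c, cutadapt 1.12 and FastQC 0.11.5, and hg38 and mm10 are named as builds. The strand and multi-overlap settings are not given in the sources used here. The deposited values behave as a normalized signal, in which each library's read counts were scaled by a constant of its own: 100.0% of the values came out as whole reads within 0.01 read, which gave 47465335 to 94516756 reads per library. Values were tested as log2(value + 1) with limma 3.58.1 (R 4.3.3), with group as the only term and a variance trend, over all 12 libraries and over genes for which 4 or more libraries held a value of 10 or above. Tests are two-sided, with Benjamini-Hochberg adjustment within each comparison and calls at an adjusted p under 0.05. edgeR 4.0.16 and DESeq2 1.42.0 on the recovered reads, other scalings, pseudocounts, filters, a replicate block and leaving out each library were alternatives. The limma step was also run on simulated counts with few changed genes and independent libraries. That setting differs from these data, so it does not show how the calls here perform.

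The members, roles and gene lists were chosen with earlier results of these data known. Values in every library are given for the 6 largest called rises and 6 largest called falls per comparison (genes averaging 50 or more in whichever group was higher), and for SF3B1, PRPF8, U2AF1, U2AF2, SNRPB and SNRPN. Genes of the other lists are named as the 3 largest called changes each way. Some genes that these rules select are not reported here by name and are left out of the gene plots, though they stay in the counts. Positions, exon lengths and overlaps come from GENCODE 29 (GRCh38), which holds 58611 of the gene IDs and lacks 273. Shared 50-base stretches were counted between annotated transcripts. Promoter sequences are from RefSeq (GRCh38.p14), and 9 of the 47 genes had no entry.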

Additional observations from a re-analysis of the deposited data

Results flagged for a closer look

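In 8 of the 141 groups of 4 libraries (47 genes in 3 groups), 1 library stood far from the other 3, by Dixon's test of the gap to its nearest neighbor over the range of the group. Chance gives about 1 in 20 such groups. SNRPA1 had 4643.7 normalized counts in mitoxantrone replicate 1, beside 4056.4 to 4140.2 in the other mitoxantrone libraries. SF3B5 had 4626.2 in mitoxantrone replicate 1 (others 5058.0 to 5134.4) and 4687.4 in control replicate 1 (others 4968.2 to 5014.3). SF3B4 had 8116.2 in mitoxantrone replicate 4 (others 8590.9 to 8679.1), and SNRPB2 had 6941.3 in the same library (others 6535.9 to 6603.0). PRPF31 had 4865.7 in pyrimethamine replicate 3 (others 5083.0 to 5118.3). PRPF4 had 10080.0 in pyrimethamine replicate 2 (others 10427.5 to 10465.9). PRPF40B had 231.1 in pyrimethamine replicate 4 (others 199.4 to 202.0).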

How the results depend on the processing

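For 141 gene results (47 genes in 3 comparisons) and 25 alternatives, 3415 of 3525 values kept their side of the threshold, 67 lost a call, 41 gained one and 2 reversed. Among the 3415 are 882 uncalled values, of which 61 changed sign. Of 104 calls, 86 held under every one of these alternatives. With libraries rescaled to the same total, 11 spliceosome genes were lower for mitoxantrone against control (5 without it). Over all genes 42.5% were lower there (35.8% without it). For pyrimethamine against control 8 spliceosome genes were higher (13 without it), beside 21.5% of all genes (26.4% without it). Of the genes on the other lists, 26 were lower for mitoxantrone against control (17 without it). SF3A3 (-0.098), SNRPD3 (-0.094), SNRPB2 (-0.11), SF3B4 (-0.13), LSM1 (-0.16) and LSM10 (-0.15) became called falls for mitoxantrone against control. The median of all genes was -0.11 in that setting. Quantile normalization gave 25 higher and 6 lower for mitoxantrone against control, 12 and 21 for pyrimethamine against control, and 26 and 11 between the drugs. Over all genes the shares were then 36.1% and 32.8%, 26.8% and 28.5%, and 40.1% and 36.2%. Upper-quartile rescaling gave 27 and 6, 13 and 18, and 26 and 12. The shares of all genes were 29.8% and 38.8%, 27.5% and 25.9%, and 33.7% and 42.7%. Leaving out 1 library gave 28 to 32 higher and 3 to 5 lower for mitoxantrone against control, 10 to 13 and 18 to 19 for pyrimethamine against control, and 28 to 32 and 9 between the drugs. The 3 came without control replicate 4, when LSM3 and U2AF2 lost their calls. Over all genes, leaving out 1 library gave 32.1% to 33.9% higher and 34.0% to 36.0% lower for mitoxantrone against control. The shares were 24.0% to 28.3% and 24.9% to 28.5% for pyrimethamine against control. They were 35.7% to 37.1% and 37.9% to 39.7% between the drugs. With the replicate number as a block the counts were 31 and 5, 13 and 19, and 30 and 10. The shares of all genes were 33.5% and 35.8%, 26.5% and 26.9%, and 36.8% and 39.5%. In their deviations from the group means, the 12 pairs of libraries with the same number correlated at -0.013 to 0.029, and 0 exceeded 0.1. The 36 pairs from different groups with different numbers correlated at -0.074 to 0.045. Such values cannot tell whether libraries with the same number shared a culture or a day. On the recovered reads, edgeR called 31 and 5, 13 and 19, and 31 and 9, and DESeq2 30 and 5, 13 and 18, and 30 and 9. Of all genes, edgeR called 34.2% and 35.2%, 26.6% and 28.2%, and 37.8% and 38.5%. DESeq2 called 34.2% and 35.7%, 27.8% and 27.2%, and 36.9% and 39.5% of them. Differences of about 0.1 on the log2 scale lie near the limit of 4 libraries a group.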

Other observations

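Among the 47 spliceosome genes, the log2 change went with transcript length in the pyrimethamine libraries. Spearman's rho between the change and the length of the longest coding transcript was -0.43 for pyrimethamine against control, 0.14 for mitoxantrone against control and 0.32 for mitoxantrone against pyrimethamine. Over 13280 coding genes tested, the values were -0.02, -0.00 and 0.01 in the same order. These describe genes within the same libraries, which are not independent replicates, and no test was made.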
